A study of Homo sapiens with 6 samples.

Results

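The endoplasmic reticulum (ER) folds secreted and membrane proteins, and 45 genes of its folding, stress-sensing and disposal machinery are described here in RNA-seq of the triple-negative breast cancer cell line MDA-MB-468. The genes were taken by name from the 31122 rows of a table of counts per gene. They comprise 10 heat shock-type chaperones and cofactors of the ER lumen, 2 lectin chaperones, 9 disulfide isomerases and thioredoxin-like proteins, 11 genes of ER-associated degradation (ERAD), 5 translocon genes, and 8 stress sensors and membrane-bound transcription factors with their proteases. All 45 had enough reads to be tested.

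Polyadenylated RNA of 6 cultures was compared. Of the libraries, 3 (KO-labelled 1 to 3) came from populations edited with CRISPR-Cas9 and a single guide RNA, sgRNA1, against the orphan receptor gene GPR52, and carry the titles 11, 12 and OG. The other 3 (parental 1 to 3) were unedited cells grown in wells of the same plate. No label states if these populations are single clones or mixed cells, and no non-targeting control was analysed here, so editing, selection and time in culture cannot be told apart from the genotype label. The p-values therefore measure the spread between these 6 libraries, part of which may be technical. In bulk RNA, fewer cells of a type and less RNA per cell cannot be told apart.

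GPR52 itself had 645, 694 and 724 counts in KO-labelled 1 to 3, against 9, 1 and 0 counts in parental 1 to 3. The targeted transcript was thus higher under the knockout label. Since this level goes against the label, "KO-labelled" is used throughout, and each direction below is drawn from the label alone. Libraries held 25637794 to 31692454 counts, and each pair of libraries differed by more than counting error. Of the 17420 genes tested over the whole table, 21.0% were called higher and 19.8% lower under the KO label at an adjusted p under 0.05. Epithelial markers of the line summed to 3829 to 4710 FPKM (fragments scaled to transcript length and library size) in KO-labelled libraries and 4359 to 4736 FPKM in parental libraries. Single markers in that sum moved both ways. EPCAM was called higher (log2 fold change 0.46), and KRT7 (-0.33), KRT18 (-0.46) and CDH1 (-0.42) were called lower. EGFR, KRT8 and KRT19 were not called. Of the markers of other cell types, 4 of 5 fibroblast genes summed to 5.93 to 7.95 FPKM in KO-labelled libraries and 1.68 to 2.20 FPKM in parental libraries, nearly all from COL1A1. The leukocyte gene CD14 was at 1.33 to 2.23 FPKM in KO-labelled libraries and 14.3 to 20.1 FPKM in parental libraries. COL1A2, LUM and CD3E were at or near 0, and the part of such cells in the results below was not tested. The endothelial gene CDH5 was at 0.0680 to 0.121 FPKM in KO-labelled libraries and 0.325 to 0.436 FPKM in parental libraries, and 4 plasma cell genes summed to 112 to 137 FPKM in KO-labelled libraries and 110.1 to 133 FPKM in parental libraries, nearly all from SDC1.

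Newly made secretory proteins enter the ER through the SEC61 channel and are folded there by HSPA5 (BiP), HSP90B1, the lectins calnexin and calreticulin, and the protein disulfide isomerases. Proteins that fail to fold are recognised by lectins such as OS9 and the EDEM proteins, returned to the cytosol through the SEL1L and SYVN1 complex, and degraded by the proteasome. When unfolded proteins accumulate, ERN1 (IRE1) splices XBP1 mRNA, EIF2AK3 (PERK) raises ATF4 translation, and ATF6 travels to the Golgi, where the proteases MBTPS1 and MBTPS2 release it from the membrane as a transcription factor. CREB3 and its relatives are membrane-bound factors released by the same proteases. The active factors bind the ER stress response element (ERSE) and related motifs in promoters of chaperone and ERAD genes.

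The promoters of the classic target genes are shown because they are the sequences through which this pathway is known to act, and because the genes that carry them can be followed as a group in the values below. Windows of 300 bases (250 before the gene start, 50 after) were read from RefSeq on GRCh38.p14 for 42 of the 45 members. PDIA3, DERL1 and DERL3 have no entry. The motifs searched on both strands were ERSE (CCAAT and CCACG with 9 bases of any letter between), ERSE-II (ATTGG and CCACG with 1 base of any letter between) and the core of the unfolded protein response element (TGACGTGG). Capitals mark ERSE or ERSE-II in either orientation, with 10 flanking bases on each side.
HSPA5, chr9:125241381-125241419, minus strand, ERSE: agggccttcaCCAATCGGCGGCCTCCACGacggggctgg
HSP90B1, chr12:103930206-103930349, plus strand, a pair of ERSE in opposite orientation: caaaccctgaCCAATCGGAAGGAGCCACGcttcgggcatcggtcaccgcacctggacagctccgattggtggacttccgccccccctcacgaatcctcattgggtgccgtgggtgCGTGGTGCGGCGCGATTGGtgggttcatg
HYOU1, chr11:119057264-119057400, minus strand, a pair of ERSE-II: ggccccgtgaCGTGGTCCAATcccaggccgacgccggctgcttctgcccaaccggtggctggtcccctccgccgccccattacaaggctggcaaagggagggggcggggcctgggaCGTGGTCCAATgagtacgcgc
CALR, chr19:12938374-12938412, plus strand, ERSE reversed: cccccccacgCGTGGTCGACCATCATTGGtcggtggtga
CANX, chr5:179698768-179698806, plus strand, ERSE: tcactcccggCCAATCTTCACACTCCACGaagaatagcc
CRELD2, chr22:49918544-49918582, plus strand, ERSE reversed: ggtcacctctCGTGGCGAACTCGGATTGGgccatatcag
SDF2L1, chr22:21642104-21642134, plus strand, ERSE-II reversed: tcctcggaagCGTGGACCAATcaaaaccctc
HERPUD1, chr16:56932015-56932045, plus strand, ERSE-II: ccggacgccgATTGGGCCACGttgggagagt
XBP1, chr22:28800593-28800631, minus strand, ERSE: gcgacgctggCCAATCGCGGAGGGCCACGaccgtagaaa

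These 8 members were all that matched ERSE or ERSE-II, 19% of the 42 with a window, against 37 (0.136%) of all 27305 RefSeq windows of that length. XBP1 is not among the 45 but matched as well. The core element TGACGTGG was found in HYOU1, DNAJC10 and TXNDC11 and in 0.795% of all windows, and in HYOU1 it overlaps the upstream ERSE-II. Both ERSE-II matches of HYOU1 are reversed in the sequence shown. A match describes the letters in the window and is not evidence of binding.

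Across the whole gene group, 3 members (6.67%) rose under the KO label and 18 (40%) fell, while 24 were not called. The background over all tested genes was 21.0% higher and 19.8% lower, or 40.8% in either direction. P4HB, PDIA6 and VIMP were the 3 that rose. The median log2 fold change of the members was -0.17, beside 0.01 over all tested genes, and 33 of the 45 estimates were below 0. KO-labelled and parental libraries did not overlap in 28 members (62.2%), beside 54.4% of all tested genes. Only 4 members moved by more than 2-fold (CREB3, CREB3L1, MBTPS2 and DERL3), and all 4 fell, where 5.38% of all tested genes fell and 6.67% rose by that much. In all, the members took 1.01%, 1.02% and 0.940% of the counts in KO-labelled 1 to 3, against 1.07%, 1.05% and 1.06% in parental 1 to 3.

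**Figure D1:**
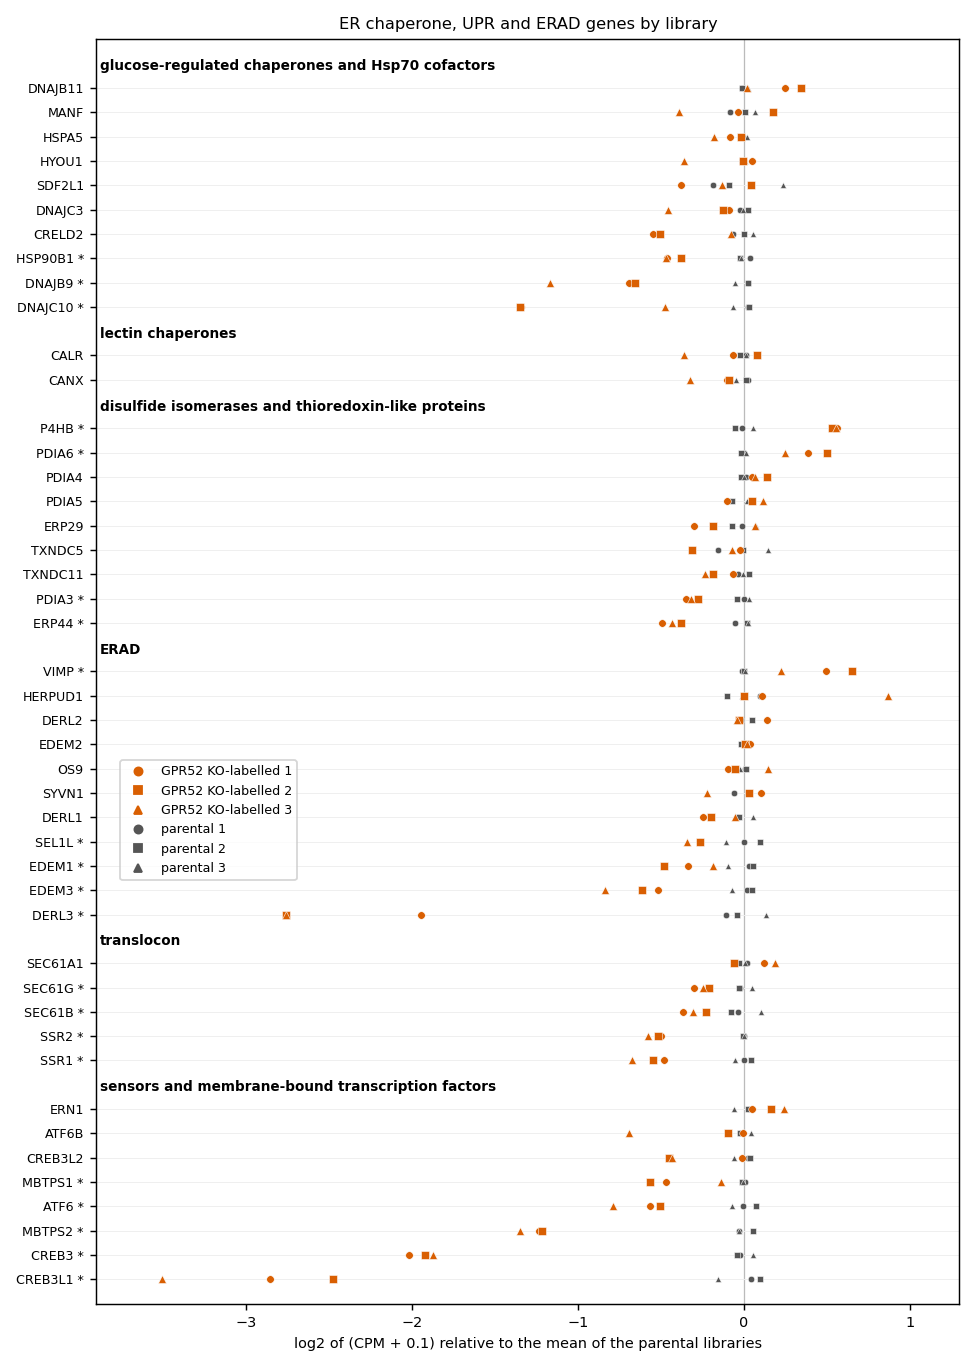
Each row is a member gene, grouped by role, and each point a library: orange for KO-labelled 1 to 3, grey for parental 1 to 3. The horizontal axis is the log2 of CPM + 0.1 relative to the parental mean, an asterisk marks members called in edgeR's test, and most orange points lie left of 0, with CREB3, CREB3L1, MBTPS2 and DERL3 farthest left.

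The heat shock-type chaperones held 3 members that fell (30%), none that rose and 7 that were not called. Over all tested genes 19.8% were lower and 21.0% higher. HSPA5, the ER's main heat shock chaperone and the usual gauge of ER stress, had 414, 433 and 386 CPM (counts scaled to TMM library size) in KO-labelled 1 to 3, against 436, 433 and 443 CPM in parental 1 to 3. The libraries overlapped, and the log2 fold change of -0.09 had a 95% interval of -0.24 to 0.06 (adjusted p = 0.304, edgeR's quasi-likelihood test, as for every adjusted p below unless another tool is named). HSP90B1, the ER form of the HSP90 chaperones, had 513, 544 and 510.4 CPM in KO-labelled libraries, against 725, 696 and 701 CPM in parental libraries. All KO-labelled values were lower and the groups stood well apart (log2 fold change -0.44, SE 0.06, adjusted p = 9.0e-04). The table also holds rows for near-identical pseudogene copies, HSP90B2P and HSP90B3P, at -0.50 and -0.37 on the log2 scale, so how reads were split between these rows is uncertain.

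The other 2 that fell in that class are partners of HSPA5. DNAJB9, a J-domain protein that holds the sensor ERN1 inactive and is itself a target of the response, had 15.9, 16.3 and 11.4 CPM in KO-labelled libraries, against 26.2, 26.2 and 24.9 CPM in parental libraries. KO-labelled 3 was the lowest of all, and the groups did not overlap (log2 fold change -0.82, SE 0.14, adjusted p = 0.00230). DNAJC10, a J-domain disulfide reductase that assists ERAD, had 81.3, 81.3 and 148 CPM in KO-labelled 1 to 3, against 210.2, 212 and 198 CPM in parental 1 to 3. KO-labelled 1 and 2 were nearly equal and KO-labelled 3 lay between them and the parental values (log2 fold change -0.99, SE 0.22, adjusted p = 0.00806).

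The remaining chaperones and cofactors were not called. They are HYOU1, the nucleotide exchange factor of HSPA5, the J-domain proteins DNAJB11 and DNAJC3, the secreted protective factor MANF, CRELD2, SDF2L1 and HSPA5 itself, with log2 fold changes between -0.36 (CRELD2) and 0.21 (DNAJB11). Among them CRELD2 had 22.8, 23.6 and 31.7 CPM in KO-labelled libraries, against 32.04, 33.5 and 34.8 CPM in parental libraries. Its groups did not overlap, but KO-labelled 3 nearly reached the parental range (adjusted p = 0.0568, and 2.97e-04 without KO-labelled 3). The lectin chaperones were not called either. Calreticulin (CALR) had 1057, 1167 and 859.6 CPM in KO-labelled libraries, against 1113, 1085 and 1113 CPM in parental libraries, and calnexin (CANX) had 1445, 1457 and 1236 CPM in KO-labelled libraries, against 1578, 1565 and 1499 CPM in parental libraries. KO-labelled 3 was the lowest library for both, and the intervals of the log2 fold changes were -0.35 to 0.14 for CALR and -0.35 to 0.02 for CANX.

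Set against the promoters shown above, the 8 members with ERSE or ERSE-II comprised 1 that fell (HSP90B1), none that rose and 7 that were not called, with a median log2 fold change of -0.12. The 34 members with a window and no such match comprised 3 that rose, 15 that fell and 16 that were not called, with a median of -0.22. Over all tested genes 21.0% were higher and 19.8% lower. The counts of members with and without a match describe the members and were not tested against each other.

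Of the 9 disulfide isomerases, 2 were higher and 2 lower (22.2% each), and 5 were not called. These shares were near the 21.0% higher and 19.8% lower of all tested genes. P4HB, the archetypal protein disulfide isomerase and a subunit of collagen prolyl hydroxylase, had 641, 627 and 639.8 CPM in KO-labelled libraries, against 431, 419.7 and 453 CPM in parental libraries. Every KO-labelled value was far above every parental value (log2 fold change 0.55, SE 0.06, adjusted p = 2.8e-04). PDIA6, an isomerase that also attenuates ERN1 signalling, had 883, 955 and 801 CPM in KO-labelled libraries, against 675, 666 and 681 CPM in parental libraries. Again the groups did not overlap, with KO-labelled 3 nearest to the parental range (log2 fold change 0.38, SE 0.08, adjusted p = 0.00500). PDIA6 overlaps ATP6V1C2, at 1.23 on the log2 scale, in RefSeq.

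PDIA3, the isomerase that works with calnexin and calreticulin on glycoproteins, had 191, 201 and 195 CPM in KO-labelled libraries, against 243, 236 and 248 CPM in parental libraries. All KO-labelled libraries were lower (log2 fold change -0.31, SE 0.06, adjusted p = 0.00432). Its processed copy PDIA3P moved by -0.32 on the log2 scale, and the split of reads between both rows is uncertain. ERP44, which retains ERO1 oxidases and other clients in the early secretory pathway, had 45.6, 49.2 and 47.5 CPM in KO-labelled libraries, against 61.8, 65.0 and 65.3 CPM in parental libraries. These groups, too, were fully separate (log2 fold change -0.43, SE 0.07, adjusted p = 0.00186). PDIA4, PDIA5, ERP29, TXNDC5 and TXNDC11 were not called, with log2 fold changes of -0.16 (TXNDC11) to 0.09 (PDIA4).

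TXNDC5, a thioredoxin-domain isomerase, was measured very differently by the 2 deposited tables. By counts it was at 1.96, 1.59 and 1.89 CPM in KO-labelled libraries, against 1.78, 1.99 and 2.22 CPM in parental libraries, and the groups overlapped (log2 fold change -0.14, adjusted p = 0.566). By FPKM it was at 84.0, 88.9 and 104 in KO-labelled libraries, against 122, 116 and 123 in parental libraries, and the groups did not overlap. On log2(FPKM + 1), limma gave a log2 difference of -0.38 with an adjusted p of 0.0165, and of 0.0530 with no filter on low values. The CPM per FPKM of TXNDC5 was 0.0166, and only 0.277% of 14075 genes had a lower ratio. RefSeq lists an overlapping readthrough gene, BLOC1S5-TXNDC5. Its part in the low count was not tested, and the call for TXNDC5 is uncertain.

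ERAD genes comprised 1 that rose (9.09%), 4 that fell (36.4%) and 6 that were not called. Over all tested genes 21.0% were higher and 19.8% lower. VIMP (SELENOS), a selenoprotein that links the retrotranslocation complex to the ATPase VCP, had 48.7, 54.2 and 40.3 CPM in KO-labelled libraries, against 34.2, 34.5 and 34.7 CPM in parental libraries. The KO-labelled libraries varied more but all lay above the parental ones (log2 fold change 0.47, SE 0.11, adjusted p = 0.0109). On log2(FPKM + 1) with no filter the limma adjusted p was 0.0560, and relative to its neighbours on the chromosome the log2 value was -0.21. EDEM3, a mannosidase that marks misfolded glycoproteins for disposal, had 77.0, 72.0 and 61.7 CPM in KO-labelled libraries, against 112, 114 and 105 CPM in parental libraries. KO-labelled 3 was the lowest, with no overlap (log2 fold change -0.65, SE 0.09, adjusted p = 0.00102).

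Its relative EDEM1 was at 40.7, 36.9 and 45.3 CPM in KO-labelled libraries, against 52.5, 53.5 and 48.2 CPM in parental libraries. The gap between the groups was small relative to their spread (log2 fold change -0.33, SE 0.09, adjusted p = 0.0253), and the call was lost without KO-labelled 1 or 2 or parental 1 or 2 (edgeR adjusted p = 0.0567 to 0.0992) and on FPKM with limma. SEL1L, the scaffold of the main retrotranslocation complex, was at 68.4, 68.4 and 64.7 CPM in KO-labelled libraries, against 82.1, 87.7 and 76.2 CPM in parental libraries. Parental 3 was the nearest to the KO-labelled values (log2 fold change -0.29, SE 0.08, adjusted p = 0.0177). Without parental 1 or parental 2 the edgeR adjusted p was 0.0675 and 0.0907, and on log2(FPKM + 1) the difference was -0.10 with a limma adjusted p of 0.575. Its partner SYVN1 (HRD1), the ubiquitin ligase of that complex, was at 92.6, 88.1 and 73.7 CPM in KO-labelled libraries, against 82.5, 87.6 and 88.0 CPM in parental libraries, and was not called, with an interval of -0.24 to 0.20 on the log2 scale.

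DERL3, a derlin family channel component found mainly in secretory tissues, was barely transcribed in this line. It had 2, 0 and 0 counts in KO-labelled 1 to 3, against 16, 14 and 20 counts in parental 1 to 3. That is 2 counts in all under the KO label and 50 in parental libraries, a ratio 23.9-fold lower after scaling to library size (95% counting interval 6.28 to 203). Both of those counts came from KO-labelled 1. The edgeR fit gave a log2 fold change of -4.35 with an adjusted p of 8.0e-04, and of -7.06 without KO-labelled 1, where no count remains and the fitted size depends on the prior count. On log2(FPKM + 1) with no filter the limma adjusted p was 0.0897. SMARCB1, which overlaps DERL3 in RefSeq, was not called (0.13 on the log2 scale). The other derlins, DERL1 and DERL2, were not called, nor were EDEM2 and the lectin OS9, which delivers glycoproteins to SEL1L.

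HERPUD1, a membrane scaffold of ERAD and a strong target of the response, had 67.3, 62.2 and 114 CPM in KO-labelled 1 to 3, against 66.8, 58.2 and 61.8 CPM in parental 1 to 3. KO-labelled 3 stood far above the parental range, while KO-labelled 1 lay just above it and KO-labelled 2 within it (log2 fold change 0.38, interval -0.11 to 0.87, adjusted p = 0.185).

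Of the translocon genes, 4 of 5 fell (80%), beside 19.8% of all tested genes. SSR1 and SSR2 encode subunits of the translocon-associated protein complex, which aids insertion of some signal sequences. SSR1 had 369, 352 and 323 CPM in KO-labelled libraries, against 515, 531 and 496 CPM in parental libraries, and SSR2 had 179, 177 and 170.2 CPM in KO-labelled libraries, against 254, 253 and 254 CPM in parental libraries. Both were separate without overlap (log2 fold change -0.56, SE 0.07, adjusted p = 5.7e-04 for SSR1, and log2 fold change -0.53, SE 0.06, adjusted p = 2.8e-04 for SSR2). SEC61B, a small subunit of the channel, was at 53.1, 58.5 and 55.3 CPM in KO-labelled libraries, against 66.8, 65.0 and 73.5 CPM in parental libraries. SEC61G, the other small subunit, was at 1207, 1286 and 1255 CPM in KO-labelled libraries, against 1464, 1459 and 1537 CPM in parental libraries. These differences were modest and without overlap (log2 fold change -0.30, SE 0.08, adjusted p = 0.0173 for SEC61B, and log2 fold change -0.25, SE 0.06, adjusted p = 0.0135 for SEC61G). Their calls were marginal: SEC61B lost its call without parental 1 or 3 (edgeR adjusted p = 0.0533 and 0.0631), SEC61G without any of the parental libraries (0.0502 to 0.0545), and both on FPKM with limma. SEC61A1, the pore-forming subunit, was not called, with an interval of -0.09 to 0.27 on the log2 scale.

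SEC61G lies beside EGFR, which this line expresses at a high level, so the genes around it were listed as well. VOPP1 rose (log2 fold change 0.37, SE 0.06, adjusted p = 0.00277), but relative to its neighbours it was at 0.08 and not called (edgeR adjusted p = 0.367). EGFR had 4560.4, 4927 and 8307 CPM in KO-labelled 1 to 3, against 5268, 5212 and 4861 CPM in parental 1 to 3, and KO-labelled 3 alone was above the parental range (log2 fold change 0.21, adjusted p = 0.443). LANCL2 was not called (log2 fold change 0.19, adjusted p = 0.0853), and VSTM2A and SEPT14 had too few counts to be tested. Of the 4 tested genes there, SEC61G alone had a negative estimate.

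The sensors and membrane-bound transcription factors held 3 of the 4 differences over 2-fold. Of these 8 genes, 5 were lower (62.5%, beside 19.8% of all tested genes) and none higher. CREB3 (Luman), a basic leucine zipper factor anchored in the ER membrane, had 29.2, 31.1 and 32.1 CPM in KO-labelled libraries, against 116, 115 and 123 CPM in parental libraries. The KO-labelled values were tightly grouped and far below the parental ones (log2 fold change -1.94, SE 0.07, adjusted p = 1.9e-06). CREB3L1 (OASIS), a relative known from mouse bone for driving collagen production, had 3, 5 and 1 counts in KO-labelled 1 to 3, against 45, 39 and 40 counts in parental 1 to 3. It was low in every library and lowest in KO-labelled 3 (log2 fold change -3.67, SE 0.36, adjusted p = 1.6e-04). On log2(FPKM + 1), which understates low genes, the limma difference was -0.50 and still called. CREB3L2 was at 105, 77.3 and 78.4 CPM in KO-labelled libraries, against 107, 108 and 101 CPM in parental libraries, with KO-labelled 1 inside the parental range and no call (adjusted p = 0.0944, and 0.00324 without KO-labelled 1).

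MBTPS2, the intramembrane protease that makes the second cut in ATF6 and the CREB3 family, had 20.7, 21.0 and 19.2 CPM in KO-labelled libraries, against 47.9, 50.8 and 47.9 CPM in parental libraries. Each KO-labelled value was less than every parental value by a wide margin (log2 fold change -1.27, SE 0.08, adjusted p = 2.0e-05). MBTPS1, the Golgi protease that makes the first cut, had 182, 169.8 and 229 CPM in KO-labelled libraries, against 253, 249.9 and 251.1 CPM in parental libraries. KO-labelled 3 was the nearest to the parental values, and there was no overlap (log2 fold change -0.38, SE 0.11, adjusted p = 0.0241). That call was lost on leaving out any library but KO-labelled 3 (edgeR adjusted p = 0.0678 to 0.0756) and on FPKM with limma. ATF6 was at 76.0, 79.1 and 65.0 CPM in KO-labelled libraries, against 112, 118 and 107 CPM in parental libraries. It fell in each KO-labelled library (log2 fold change -0.61, SE 0.09, adjusted p = 0.00114). Its paralog ATF6B, a weaker activator, was at 110.4, 104 and 68.4 CPM in KO-labelled 1 to 3, against 109, 109 and 114 CPM in parental 1 to 3, and only KO-labelled 3 was clearly lower (adjusted p = 0.279). ERN1, the kinase and RNase that splices XBP1, was at 22.5, 24.5 and 25.8 CPM in KO-labelled libraries, against 22.3, 22.2 and 20.9 CPM in parental libraries, and was not called although the groups did not overlap (log2 fold change 0.16, interval -0.05 to 0.36).

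XBP1, the transcription factor downstream of ERN1, is not among the 45 genes but belongs beside them. It had 242, 198 and 179.9 CPM in KO-labelled libraries, against 521, 523 and 525 CPM in parental libraries. The parental libraries were nearly equal and the KO-labelled ones were all far lower (log2 fold change -1.34, SE 0.11, adjusted p = 6.4e-05). CREB3L4, a further CREB3 relative, was at 57.1, 45.1 and 31.1 CPM in KO-labelled libraries, against 115, 112 and 115 CPM in parental libraries (log2 fold change -1.36, SE 0.19, adjusted p = 8.8e-04). The counts are per gene and do not separate spliced from unspliced XBP1.

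The PERK branch comprises the sensor itself, ATF4 and the targets of ATF4. EIF2AK3 was at 33.8, 31.4 and 28.3 CPM in KO-labelled libraries, against 38.4, 36.1 and 35.2 CPM in parental libraries (adjusted p = 0.0751). ATF4 was at 470.5, 501 and 595 CPM in KO-labelled libraries, against 457, 456 and 483 CPM in parental libraries (adjusted p = 0.188). DDIT3 (CHOP), a pro-apoptotic factor induced by ATF4, was at 7.88, 8.77 and 13.1 CPM in KO-labelled libraries, against 7.46, 6.16 and 6.62 CPM in parental libraries (adjusted p = 0.0578). None of these was called at TMM scaling with all libraries. DDIT3 was called with upper-quartile scaling or library totals (edgeR adjusted p = 0.0449 and 0.0431), with DESeq2 (0.0344) and without KO-labelled 1 (0.0303), and EIF2AK3 was called without KO-labelled 1 (0.0385). The log2 fold change of DDIT3 was 0.55, but 0.30 without KO-labelled 3 (edgeR adjusted p = 0.0697). Relative to its neighbours on the chromosome DDIT3 was at 0.17 (0.552). EIF2AK3 turned from -0.23 to 0.12 relative to its neighbours (0.336), and neither was called there. The highest ATF4 and DDIT3 values were both in KO-labelled 3, the library with the highest HERPUD1. ERO1L, the oxidase that recharges the isomerases, was not called (log2 fold change 0.06, interval -0.11 to 0.23).

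On the list of unfolded protein response genes outside the members, 10 of 26 tested were called (38.5%), beside 40.8% of all tested genes. Of those called, 4 are tied to this branch, and they are named here after their values were seen. STC2, a secreted glycoprotein induced through PERK, had 16.8, 33.7 and 70.6 CPM in KO-labelled 1 to 3, against 6.80, 6.32 and 5.21 CPM in parental 1 to 3. KO-labelled 3 was the highest and KO-labelled 1 the lowest of its group, without overlap (log2 fold change 2.73, SE 0.48, adjusted p = 0.00289). Without KO-labelled 3 its log2 fold change was 2.05, and on log2(FPKM + 1) with no filter the limma adjusted p was 0.0663. CHAC1, a glutathione-degrading enzyme induced by ATF4, had 4.79, 7.96 and 12.0 CPM in KO-labelled 1 to 3, against 3.73, 3.93 and 3.99 CPM in parental 1 to 3. It too was highest in KO-labelled 3 (log2 fold change 1.09, SE 0.30, adjusted p = 0.0221), and its call was lost without KO-labelled 2 or any of the parental libraries (edgeR adjusted p = 0.0537 to 0.0754) and on FPKM with limma. NUPR1, a stress-induced nuclear protein, had 72.9, 58.1 and 64.2 CPM in KO-labelled libraries, against 41.2, 39.9 and 44.0 CPM in parental libraries, without overlap (log2 fold change 0.64, SE 0.10, adjusted p = 0.00143). EIF2S1, the translation factor subunit that PERK phosphorylates, had 129, 133 and 124 CPM in KO-labelled libraries, against 156, 157 and 152 CPM in parental libraries. All KO-labelled values were lower (log2 fold change -0.27, SE 0.06, adjusted p = 0.00984), but the call was lost without parental 1 or 2 (edgeR adjusted p = 0.0507 and 0.0565) and on FPKM with limma. Other genes of the branch on that list were not called, namely TRIB3 (log2 fold change -0.03), PPP1R15A (0.00), PPP1R15B (-0.10), SESN2 (0.33) and ATF3 (-0.38). Of these, ATF3 lay close to the threshold (edgeR adjusted p = 0.0512), and its groups did not overlap.

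**Figure D2:**
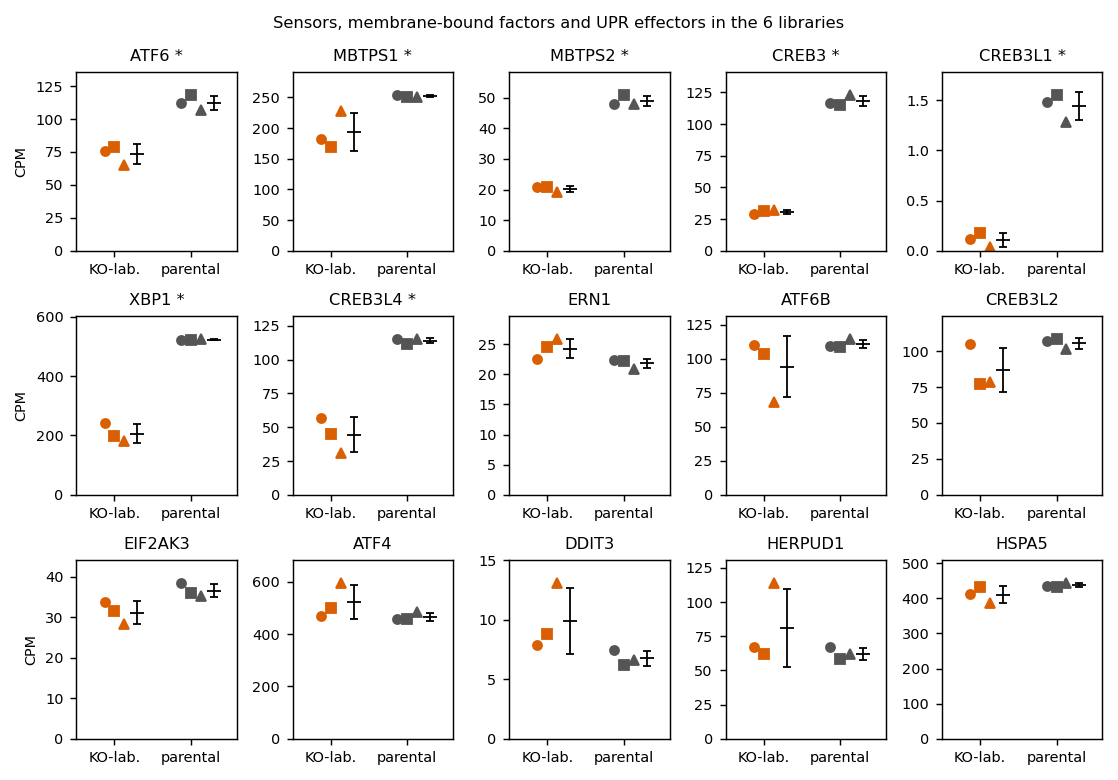
Each panel shows a sensor, membrane-bound factor, effector or target, with CPM on the vertical axis starting at 0, orange points for KO-labelled 1 to 3 on the left and grey points for parental 1 to 3 on the right. The bar gives mean and SD of 3 libraries and an asterisk an adjusted p under 0.05, and XBP1, CREB3, CREB3L1, CREB3L4 and MBTPS2 are lower in every KO-labelled library while HSPA5 overlaps.

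Further genes of the same pathways were counted in lists, and their background is the 21.0% higher and 19.8% lower of all tested genes. Of 26 tested unfolded protein response genes outside the members, 4 rose and 6 fell, with a median log2 fold change of -0.06. Besides XBP1 and CREB3L4, BCAP31, an ER membrane chaperone, rose (log2 fold change 0.73), and the inflammatory caspase CASP4 fell (log2 fold change -0.59). Of 46 ERAD and ubiquitin genes outside the members, 11 rose and 12 fell (median -0.02). VCP, the ATPase that pulls substrates out of the membrane, was at 367, 382 and 331 CPM in KO-labelled libraries, against 1431, 1432 and 1461 CPM in parental libraries (log2 fold change -2.001, SE 0.07, adjusted p = 1.8e-06). Its cofactor NPLOC4 rose by a log2 fold change of 0.82 and AUP1 by 0.78, whereas the ubiquitin-conjugating enzyme UBE2J1 had a log2 fold change of -0.97.

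Among 56 disulfide, proline and collagen folding enzymes outside the members, 10 rose and 13 fell (median log2 fold change -0.04). The 4 with the smallest p all fell: the ER peroxiredoxin PRDX4 (-1.24), the sulfhydryl oxidase QSOX1 (-0.93), the collagen prolyl hydroxylation cofactor CRTAP (-0.78) and the lysyl hydroxylase PLOD2 (-0.55). N-glycosylation genes split evenly, with 11 of 47 higher and 10 lower (median -0.02). MAGT1, an oligosaccharyltransferase subunit, fell (-1.02), while the trimming glucosidase MOGS (0.60), the glucosidase subunit PRKCSH (0.74) and the cargo receptor subunit MCFD2 (0.66) rose.

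Translocation genes outside the members comprised 8 of 42 higher and 9 lower (median -0.06). The 4 with the smallest p all fell, among them the signal peptidase subunit SPCS3 (-0.88) and TRAM1 (-0.84), which aids translocation, with CKAP4 (-1.04) and TMEM147 (-0.69). Genes of the COPII coat and retrieval receptors comprised 7 of 32 higher and 6 lower (median -0.08). PREB (0.63), the exchange factor that starts COPII assembly, and KDELR3 (1.21), a receptor that returns ER-resident proteins, rose, and SEC23B (-0.53) and TMED10 (-0.49) fell. For the genes that these lists name by smallest p, the adjusted p-values lay between 1.8e-06 (VCP) and 6.7e-04 (PLOD2) for all but CREB3L4, which is given above.

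KO-labelled 3, the population titled OG, stood off from KO-labelled 1 and 2 in 27 of the 45 members, with a gap larger than theirs, above them in 8 and below in 19. Over all tested genes it stood off in 47.4%, above in 3963 and below in 4293. HERPUD1 and DNAJC10 are examples above, and CALR, HYOU1, MANF and ATF6B are examples below. The SD of log2 CPM was larger among KO-labelled libraries in 39 of 45 members (86.7%), beside 76.4% of all tested genes, with a median of 0.134 against 0.0490 among parental libraries. Without KO-labelled 3, all 21 called members kept their call and DNAJB11, CRELD2, ERP29 and DERL1 were called as well, which makes 4 higher and 21 lower, where 52.6% of all tested genes were called in that fit.

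Many of the differences were shared with genes nearby on the chromosome. For each member, the median log2 fold change of the 10 tested genes on either side in RefSeq order was taken. Around CREB3 on chromosome 9 the median was -1.62, with 14 of 20 neighbours lower and none higher. MBTPS2 on chromosome X had a median of -0.997 (15 of 20 lower, 2 higher). P4HB on chromosome 17 had a median of 0.83 (19 of 20 higher), VIMP on chromosome 15 had 0.68 (12 of 15 higher) and PDIA6 on chromosome 2 had 0.49 (14 of 20 higher). PRDX4 is itself among the neighbours of MBTPS2, and NPLOC4 among those of P4HB. Around DNAJC10 the median was -0.55, around HSP90B1 -0.41 and around ATF6 -0.36.

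Around some other called members and XBP1 the neighbours' median was closer to 0. It was -0.05 around DNAJB9, 0.18 around CREB3L1, -0.05 around ERP44, 0.17 around PDIA3 and 0.06 around XBP1. Single neighbours still moved there, such as 7 of 20 higher and 3 lower around CREB3L1. Of the 21 called members, 17 (81.0%) had the sign of their neighbours' median, beside 4701 of 6402 (73.4%) called genes with a position. All 3 that rose lay among neighbours with a positive median. In 39 of 45 members (86.7%) the log2 fold change was below the neighbours' median, beside 7350 of 14694 genes with a position, and the median gap was -0.22.

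**Figure D3:**
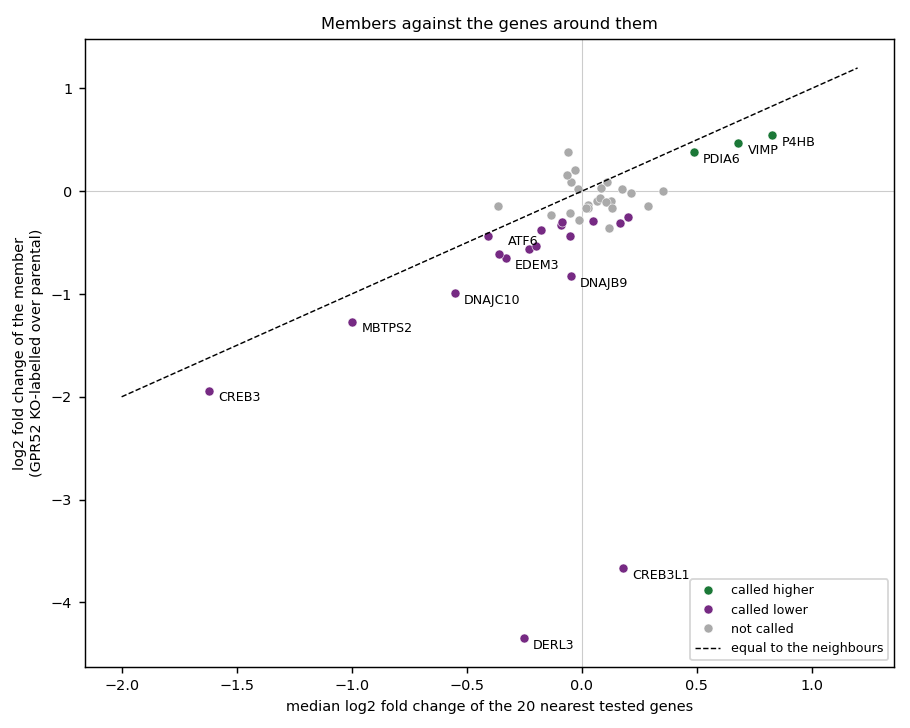
Each point is a member, with the median log2 fold change of its nearest tested genes (10 on either side) on the horizontal axis and its own log2 fold change (KO-labelled over parental) on the vertical axis, and the dashed line marks equality. P4HB, PDIA6 and VIMP sit at the upper right and CREB3 and MBTPS2 at the lower left near the line, while DERL3, CREB3L1 and DNAJB9 lie well below it.

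When the neighbours' median was taken off in the fit, none of the members was higher and 16 were lower. In that fit 33.8% of all tested genes were called in either direction. The median log2 value there was -0.0014 over all tested genes and -0.22 over the members. Of the 21 calls, 12 were kept in the same direction, and those for HSP90B1, DNAJC10, PDIA6, EDEM1, VIMP, SEC61B, ATF6 and MBTPS1 were lost, while CRELD2, CANX and OS9 were newly called lower. P4HB was called lower instead, at a log2 value of -0.28 relative to its neighbours. CREB3 came to -0.32 and MBTPS2 to -0.27 on that scale, against -0.78 for DNAJB9, -1.40 for XBP1 and -0.20 for VCP. The call for VCP was lost there (edgeR adjusted p = 0.0644). This fit was chosen after the data were seen. It takes the neighbours' median, drawn from the same 6 libraries, as exact, so its p-values leave out the spread among the neighbours. The files hold no measure of DNA copy number, and its part in these blocks was not tested. GBA2, which overlaps CREB3 in RefSeq, moved by -1.67 on the log2 scale, and YY2, within MBTPS2, by -0.83, so reads that fall in both genes of such a pair may have gone to either row.

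Levels were compared per transcript length. SEC61G was the most abundant, at 3402 ± 66.8 FPKM in KO-labelled and 3907 ± 153 FPKM in parental libraries (SD, n = 3 each), followed by CALR at 504 ± 76.8 FPKM in KO-labelled and 524 ± 17.2 FPKM in parental libraries (SD, n = 3 each) and CANX at 404 ± 15.6 FPKM in KO-labelled and 421 ± 17.4 FPKM in parental libraries (SD, n = 3 each). At the other end, CREB3L1 and DERL3 were below 1 FPKM in both groups. The median level over the 45 members was 40.2 FPKM in KO-labelled and 41.9 FPKM in parental libraries, with 12 members over 100 FPKM under the KO label and 13 in parental libraries. CREB3 ranked 30 of 45 under the KO label and 18 of 45 in parental libraries, at 16.3 ± 0.801 FPKM in KO-labelled and 60.3 ± 3.39 FPKM in parental libraries (SD, n = 3 each).

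**Figure D4:**
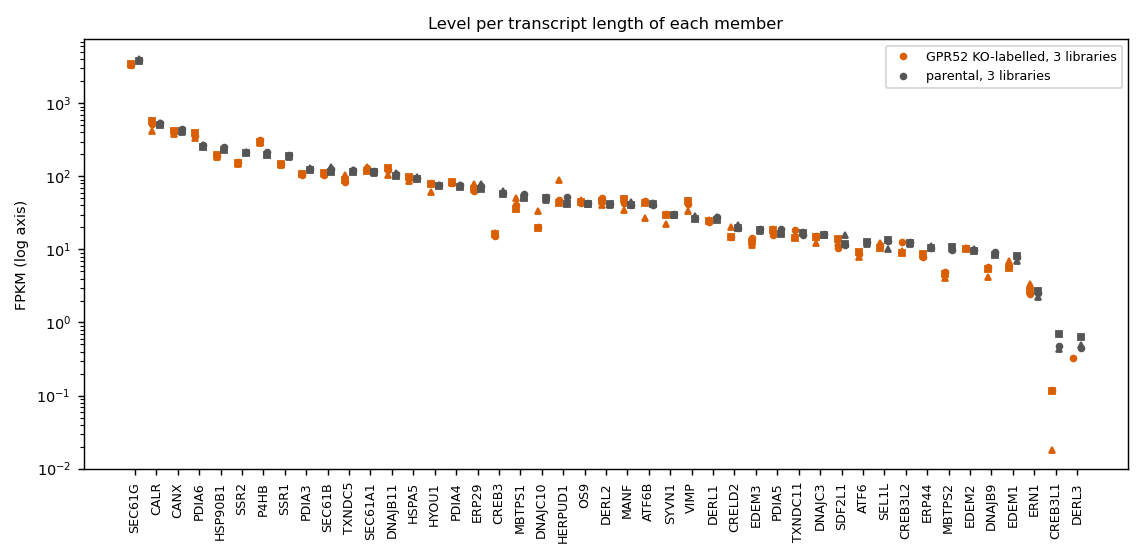
FPKM on a log axis for each member in each library, ordered by parental mean, with orange points for KO-labelled and grey points for parental libraries. SEC61G stands above all others, CREB3L1 and DERL3 fall below 1 FPKM, and the 0 values of DERL3 in KO-labelled 2 and 3 cannot be drawn on this axis.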

How the data were processed

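Polyadenylated RNA of MDA-MB-468 was sequenced from directional libraries, per the labels' protocols. The authors deposited whole-number counts per gene symbol, not normalised, and FPKM values, which are scaled for length and depth. Tools listed in the submitters' processing notes are Cufflinks 2.0.2, SAMtools 0.1.19 and STAR 2.4.0f1, with hg19 as build. Which program counted reads, on which annotation and with which strand setting is not given in the sources used here. No deposited column belonged to other samples (0 columns).

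Samples were grouped by the genotype label, 3 KO-labelled and 3 parental. Counts were filtered with filterByExpr (minimum count 10, minimum total 15), scaled by TMM and tested with edgeR 4.0.16 in R 4.3.3 (quasi-likelihood F test, no covariate). Benjamini-Hochberg adjustment ran over all 17420 tested genes at a threshold of 0.05. The SE is the size of the log2 fold change divided by the square root of F, and 95% intervals use the same fit. A count was worth 0.0321 to 0.0397 CPM, and intervals on counts cover counting error only. FPKM was described per group and, as an alternative, tested with limma 3.58.1 on log2(FPKM + 1), a scale that understates the change of low genes.

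The members and lists were chosen with earlier results of these data known. Each called member, all 8 sensors and membrane-bound factors, XBP1, ATF4, EIF2AK3, DDIT3 and ERO1L, up to 4 called genes per list by smallest p, and the genes beside SEC61G were named by rule. Other members named with values (HSPA5, CALR, CANX, CRELD2, TXNDC5, HERPUD1 and SYVN1), 4 genes of the PERK branch (STC2, CHAC1, NUPR1 and EIF2S1), and genes that overlap a member or are a near-identical copy, were named after their values were seen. Gene order came from RefSeq on GRCh38.p14, a later build than hg19, with positions for all 45 members and 84.4% of tested genes. Alternatives were other normalisations and filters, DESeq2 1.42.0, limma voom, the legacy fit, the FPKM values, a test against a 1.5-fold change, leaving out each library, and, chosen after seeing the data, a fit with the median log2 fold change of the 20 nearest genes as an offset. On simulated counts for 17404 genes of this comparison, the edgeR steps recovered 78.35% of 2-fold and 98.96% of 4-fold changes, and 7.065% of the calls were unchanged genes. That simulation changed few genes (97 tested at 2-fold and 96 at 4-fold) and drew both groups with the same dispersion. In the data 40.8% of tested genes were called, and the SD was larger among KO-labelled libraries in 76.4%. The simulated rates therefore need not hold for this comparison. One marker gene's value is not reported here.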

Additional observations from a re-analysis of the deposited data

How the results depend on the processing

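Across 17 alternatives tested against no change, 14 of the 21 called members kept their direction and their call in each that gave a value. With the fit relative to the 20 nearest genes added, DNAJB9, PDIA3, ERP44, EDEM3, SSR1, SSR2, MBTPS2, CREB3 and CREB3L1 still did, while HSP90B1, DNAJC10, ATF6, P4HB and PDIA6 lost direction or call in that fit alone. The other 7 lost their call against no change at least once, most often MBTPS1, EDEM1, SEC61B, SEC61G and SEL1L. In a test against a 1.5-fold change, 0 members were higher and 4 lower, with 19 genes of the other lists and 1922 genes in all, where the counts without that bound were 3, 18, 124 and 7105. The genes called in all were 11.0% of those tested with that bound and 40.8% without it. On log2(FPKM + 1) with no filter, 80 genes of the lists and 4507 in all were called. Leaving out 1 library in turn gave 3 to 4 members higher and 13 to 21 lower, 71 to 175 genes of the lists and 4879 to 9367 genes in all (27.3% to 52.6% of those tested). The lowest counts came without parental 2 and the highest without KO-labelled 3, for the lists and for all genes. Relative to the 20 nearest tested genes, a fit that takes the neighbours' median off each value, 0 members were higher. Among named genes called in either fit, the log2 values changed sign for P4HB (-0.28), PDIA6 (-0.10), VIMP (-0.21), OS9 (-0.35), BCAP31 (-0.39), NPLOC4 (-0.014), MOGS (-0.026) and PREB (-0.13). The sign also changed for genes called in neither fit, namely TXNDC5 (0.22), PDIA4 (-0.023), DERL2 (-0.058), EDEM2 (-0.15), EIF2AK3 (0.12), EGFR (-0.063) and LANCL2 (-0.098). Other normalisations turned the sign of no member but SYVN1, which was not called (-0.02 as reported), and the cause of the remaining lost calls was not tested. DERL3 and CREB3L1 rest on few counts, and depth limits their size. No paired analysis was possible because the parental wells and the edited populations share no number in their labels.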

Other observations

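Chaperones outside the ER were counted in the same fit. Of 40 tested cytosolic and mitochondrial heat shock and chaperone genes, 11 rose and 5 fell under the KO label, with a median log2 fold change of 0.09, beside 21.0% higher and 19.8% lower of all tested genes. HSPH1, a cytosolic nucleotide exchange factor of the heat shock chaperones, had 296, 338 and 294 CPM in KO-labelled 1 to 3, against 181, 175 and 178 CPM in parental 1 to 3, with no overlap (log2 fold change 0.80, SE 0.07, adjusted p = 1.2e-04). Subunits of the chaperonin that folds actin and tubulin moved in both directions, with CCT4 higher (log2 fold change 0.53, adjusted p = 8.5e-04) and CCT8 lower (log2 fold change -0.45, adjusted p = 0.00112). Relative to its neighbours CCT4 was at 0.16 and lost its call (edgeR adjusted p = 0.113), while CCT8 at -0.29 kept it (0.0117). The mitochondrial protease LONP1 rose (log2 fold change 0.71, adjusted p = 0.00127). The list took 1.56% to 1.79% of the counts in KO-labelled libraries, against 1.39% to 1.42% in parental libraries.

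Among 8 receptors of ER-phagy, the autophagic removal of ER, 2 rose (25%) and none fell. Over all tested genes 21.0% were higher and 19.8% lower. FAM134B was at 6.56, 6.72 and 7.998 CPM in KO-labelled libraries, against 4.82, 4.57 and 4.28 CPM in parental libraries, without overlap (log2 fold change 0.64, SE 0.13, adjusted p = 0.00654). FAM134C rose as well (log2 fold change 0.25, adjusted p = 0.0350), but its call was marginal. It was lost with no filter on low counts, on FPKM with limma, and on leaving out KO-labelled 1 or any of the parental libraries.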
